A study of Mus musculus with 18 samples.

Results

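The livers compared here came from mice given methotrexate on a high-fat diet (HFD MTX50) or on a low-fat diet (LFD MTX50), and were chosen by the diet and treatment in their sample titles. They are 10 of the 18 livers in the series, 5 per diet, with 1 array per mouse. All were male C57BL/6 mice, placed at 6 weeks of age on a diet with 60% (HFD) or 10% (LFD) of its energy as fat. After 10 weeks of feeding, both groups received 50 mg/kg of methotrexate by intraperitoneal injection in 5 weekly rounds, and the liver was taken a week after the last round. The other 8 livers, 4 HFD and 4 LFD, came from mice on the same diets without methotrexate, and are used below only to set the diet difference under the drug beside the diet difference without it. The question is how the liver transcriptome of mice on the high-fat diet differed from that of mice on the low-fat diet when both had received the same drug.

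Methotrexate is a folate antagonist: it enters cells through the reduced folate carrier and limits the folate cofactors used to make nucleotides and to supply methyl groups. The liver is a site of its storage and of its toxicity. The same organ takes up dietary fatty acids, makes new ones from carbohydrate, esterifies both to triglyceride and either exports it, oxidizes it or keeps it in lipid droplets. A diet rich in fat is known to add to droplet and triglyceride genes and to lower the genes of new fatty acid synthesis.

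Levels are given as the log2 of the spot intensity relative to the 75th percentile of the array, so that 0 is the level of that percentile and a difference of 1 is 2-fold. Differences are HFD MTX50 minus LFD MTX50 throughout, and a gene is read on its brightest probe. Between 84.6 and 90.6% of the probes lay well above background on the 10 arrays, and the 75th percentile ranged from 1203 to 2263 intensity units. No slide held both treated groups, so the slide and the diet cannot be told apart in this comparison. The library of HFD MTX50 mouse 1 stood apart. HFD MTX50 mouse 1 correlated with the LFD MTX50 arrays at 0.982, but with the other HFD MTX50 arrays at 0.979. Its level lay 3.68 and 3.70 below the mean of the other 4 HFD MTX50 mice in S100a8 and S100a9, neutrophil calprotectin, and 5.78 below it in Hsd3b5, a male-biased steroid dehydrogenase. It lay 3.89 above that mean in Atf3, 5.67 above it in Nupr1, both genes of the stress response, and 3.12 above it in Igfbp1, which is induced on fasting. Counts are therefore also given without this mouse. It was singled out for its likeness to the LFD MTX50 arrays, so leaving it out favours a difference between the groups. Counts and p-values without it are therefore no separate evidence. HFD MTX50 mouse 5 also correlated with its own group at only 0.979, and it was not set apart in this way.

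All 10 hepatocyte markers lay well above background on all 10 treated arrays. At an unadjusted p below 0.05 in limma, 4 of them were lower in HFD MTX50 (40%, against 15.3% of all genes) and 0 higher. None had a positive difference or passed the adjusted test, and the median difference was -0.32. Of the 12 Kupffer cell and macrophage markers, 3 were higher in HFD MTX50 (25%, against 10.7% of all genes) and 0 lower at an unadjusted p below 0.05 in limma, none passed the adjusted test, and the median difference was 0.19. Of 10 erythroid markers, 3 were higher and 0 lower. The hepatocyte markers summed to 1430 to 1639 times the 75th percentile in LFD MTX50 and to 1017 to 1581 in HFD MTX50. A sum is weighted to its brightest probes. The macrophage markers summed to 36.5 to 45.6 in LFD MTX50 and to 58.1 to 82.8 in HFD MTX50, with no overlap. Without methotrexate these sums were 47.4 to 66.3 in LFD and 35.6 to 60.4 in HFD. All LFD MTX50 sums thus lay below the untreated LFD range, and the HFD MTX50 sums overlapped both untreated ranges. For Cd68, a macrophage lysosomal protein, the levels were 3.74, 3.41, 3.23, 3.34 and 4.11 in LFD MTX50 mice 1 to 5 and 3.88, 4.80, 4.87, 4.99 and 4.59 in HFD MTX50 mice 1 to 5. Only mouse 1 of the HFD MTX50 group overlapped the LFD MTX50 range. Csf1r, the receptor for macrophage colony-stimulating factor, showed the same arrangement, with 4.34 to 4.90 in HFD MTX50 mice 2 to 5 and 3.56 to 3.86 in LFD MTX50. Clec4f, which is particular to resident Kupffer cells, differed by 0.14 ± 0.23 (SE, n = 5 per group). By limma the adjusted p was 0.0556 for Cd68 and 0.0673 for Csf1r, and 0.00828 and 0.00901 without HFD MTX50 mouse 1. In bulk tissue, more cells of a type and more RNA per cell cannot be told apart.

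The erythroid markers were low in every LFD MTX50 liver and split the HFD MTX50 livers. Their sum was 1.74 to 2.24 in LFD MTX50, 2.29, 2.40 and 3.53 in HFD MTX50 mice 1 to 3, and 73.1 and 164.7 in mice 4 and 5. The 8 untreated livers lay at 17.6 to 49.3. The beta-globin Hbb-bt was at 5.60 and 6.70 in HFD MTX50 mice 4 and 5 and between -4.03 and -0.83 in the other 8 treated mice. The erythroid marker Ahsp has no probe named here and was not measured, and near-identical globin copies cannot be separated by a probe. The cholangiocyte markers summed to 2.37 to 2.53 in LFD MTX50 and to 1.56 to 2.24 in HFD MTX50. The neutrophil sums overlapped between the groups (123 to 138 and 99.7 to 187), as did those of T and NK cells, B cells, endothelial, stellate, adipocyte, pancreatic and muscle markers. The part of these cell types in the gene differences below was not tested.

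**Figure D1:**
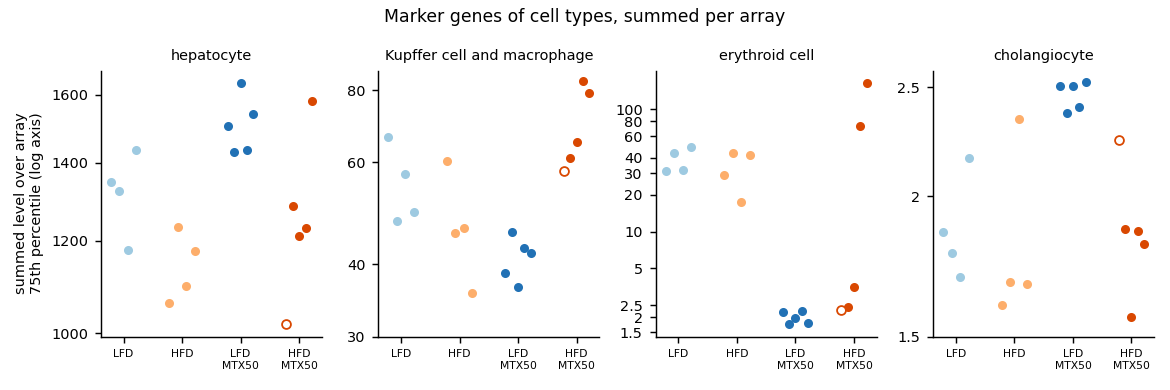
Summed linear level of each cell type's marker genes relative to the array's 75th percentile (log axis), 1 point per mouse, in the LFD, LFD MTX50, HFD and HFD MTX50 groups. The open circle is HFD MTX50 mouse 1. The macrophage sums of the HFD MTX50 livers lie above those of all LFD MTX50 livers, and the cholangiocyte sums lie below them. The erythroid sums of HFD MTX50 mice 4 and 5 lie far above the LFD MTX50 livers. Those of mice 1 to 3 (2.29, 2.40 and 3.53) lie only just above the LFD MTX50 maximum of 2.24.

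Few genes passed the test across all genes. With Benjamini-Hochberg adjustment in limma, 5 of 19266 genes (0.026%) were higher in HFD MTX50 and 4 (0.0208%) were lower at an adjusted p below 0.05. A large body of genes lay just beyond that threshold: 576 genes had an adjusted p below 0.06 and 2371 below 0.1. At an unadjusted p below 0.05, 10.7% of genes were higher and 15.3% lower, and 485 genes were at least 2-fold higher and 162 at least 2-fold lower by size alone. The 2 groups did not overlap for 1.79% of genes higher in HFD MTX50 and for 4.42% lower. Without HFD MTX50 mouse 1, the adjusted test called 5.8% of genes higher and 4.43% lower, 1970 in all. Leaving out LFD MTX50 mouse 5 gave 999 genes, and leaving out LFD MTX50 mouse 1, 2, 3 or 4 or HFD MTX50 mouse 3 or 4 gave 0 (with 3828 to 4563 at an unadjusted p below 0.05). The median difference over all genes was -0.06, and the median SD within a group was 0.22 in LFD MTX50 and 0.27 in HFD MTX50. In what follows, rose and fell are kept for the 9 genes past the adjusted test, and all other differences are given as values. With 5 against 5 mice the exact permutation test cannot give a 2-sided p below 0.00794, the value of every gene whose groups did not overlap.

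Among the 5 genes that rose, the enzyme that opens the glycerolipid pathway was Gpat3, which adds the first fatty acid to glycerol-3-phosphate on the way to triglyceride. Its levels were -2.86, -2.23, -1.80, -2.36 and -2.13 in LFD MTX50 mice 1 to 5 and 0.47, 0.67, -0.34, -0.11 and -0.64 in HFD MTX50 mice 1 to 5. Every HFD MTX50 liver lay above every LFD MTX50 liver, and the means were 4.88-fold apart (2.29 ± 0.27, SE, adjusted p = 0.0348 by limma). Without methotrexate the gene stood at -2.54 in LFD and -0.56 in HFD, so the diet difference had nearly the same size in both settings and the difference of differences was 0.30 ± 0.46.

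Fnd3c2, a fibronectin type III domain gene, showed the largest rise. Its levels were 1.02, -0.74, 0.64, 0.14 and -1.01 in LFD MTX50 and 2.53, 4.38, 4.42, 3.76 and 4.04 in HFD MTX50, a 14.1-fold difference (adjusted p = 0.0348). The lowest HFD MTX50 value was again that of mouse 1 and still lay above the LFD MTX50 range. Xaf1, an interferon-inducible antagonist of the caspase inhibitor XIAP, was at -1.28, -1.03, -1.63, -1.56 and -2.05 in LFD MTX50. In HFD MTX50 it was at -0.18, 0.81, 2.06, 1.64 and 1.61, or 6.48-fold higher (adjusted p = 0.0411), although a second probe of the gene differed by only 0.06. Sema5b, a transmembrane semaphorin, ranged from -5.47 to -4.68 in LFD MTX50 and from -3.20 to -0.88 in HFD MTX50 (2.76 ± 0.39, adjusted p = 0.0411; another probe 0.90). Enpp5, an ectonucleotide pyrophosphatase family member, had the smallest and tightest rise, with a mean of -2.16 ± 0.13 (SD, n = 5) in LFD MTX50 and -1.24 ± 0.18 (SD, n = 5) in HFD MTX50 (0.92 ± 0.12, adjusted p = 0.0348).

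Cux2, a transcriptional repressor that is normally a mark of female liver, fell furthest. Its levels were -0.55, -1.41, -1.52, -1.89 and -0.48 in LFD MTX50 and -4.45, -3.57, -4.67, -6.37 and -6.56 in HFD MTX50. The HFD MTX50 mean was 15.5-fold lower (difference -3.96 ± 0.55, adjusted p = 0.0411), with 1 of its 5 arrays not well above background, so that the fold rests in part on a level near background. With background modelled by normexp the difference was -0.71. Untreated livers were at -8.20 to -6.57 in LFD and -6.94 to -5.92 in HFD, and HFD MTX50 mice 4 and 5 lay within the untreated HFD range. The high values were those of the LFD MTX50 mice, in these male livers.

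Ahcy, which hydrolyses S-adenosylhomocysteine and so keeps the methyl cycle running, fell 2.38-fold. Its levels were 1.28, 0.80, 1.25, 0.87 and 0.94 in LFD MTX50 and -0.58, 0.31, -0.45, -0.19 and -0.18 in HFD MTX50, and another probe fell by a like amount (-1.08; the main probe -1.25 ± 0.18, adjusted p = 0.0411). Arrdc4, an arrestin-domain gene that glucose induces, was at -1.11 to -0.64 in LFD MTX50 and -2.36 to -1.72 in HFD MTX50 (-1.14 ± 0.14, adjusted p = 0.0348; another probe -0.34). Eef2k, the kinase that slows translation elongation, was at -2.89 to -2.42 in LFD MTX50 and -3.61 to -3.46 in HFD MTX50 (-0.84 ± 0.11, adjusted p = 0.0411). Its other probes differed by -0.29 and -0.19, and the difference was 0.28 under normexp. Under normexp the differences were also smaller for Arrdc4 (-0.31), Sema5b (1.22) and Gpat3 (1.48). All of these 9 calls were lost on leaving out any of the 6 mice named above that gave 0 genes, while their values stayed on the same side under every single omission.

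**Figure D2:**
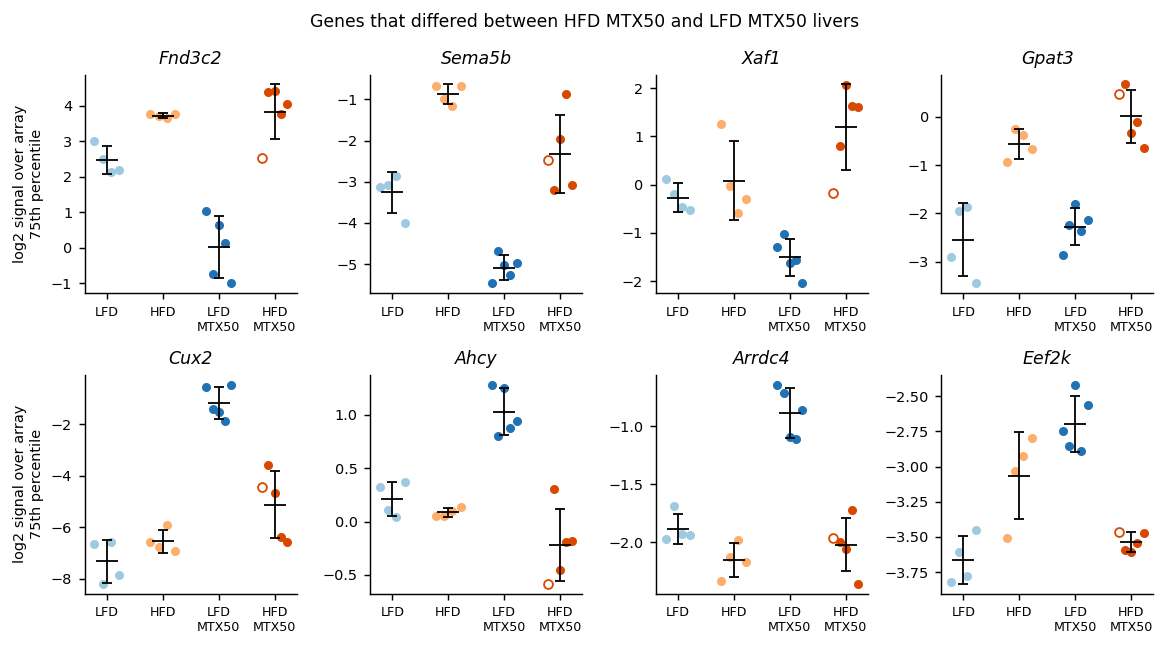
Level of 8 of the 9 genes past the adjusted test (log2 intensity relative to the array's 75th percentile) of each liver in the 4 diet and drug groups, 1 point per mouse, with a black bar for the mean ± SD. The open circle is HFD MTX50 mouse 1. In each panel the 5 HFD MTX50 points do not overlap the 5 LFD MTX50 points, and for Cux2, Ahcy, Arrdc4 and Eef2k the LFD MTX50 points lie above all other groups' means.

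The naming rule filled each direction up to 12 genes with those of smallest p, whose adjusted p was 0.0556 in limma. On the high side these were E2f8, an atypical E2F repressor of the cell cycle (0.99), the methotrexate and urate efflux pump Abcg2 (1.08), the monoacylglycerol lipase Abhd6 (0.89), the kinase Stk39 (0.83), the neurotrophin Bdnf (1.53), the heparan sulphate proteoglycan Gpc1 (1.76) and Herc6, an interferon-induced ubiquitin ligase (0.98). Abcg2 was at 1.39, 1.28, 1.51, 1.67 and 1.27 in LFD MTX50 and 2.59, 2.00, 2.59, 2.90 and 2.42 in HFD MTX50. The untreated livers of both diets, at 2.65 to 3.00 and 2.77 to 2.96, lay toward the top of the HFD MTX50 range or above it. On the low side were Gnmt, which spends S-adenosylmethionine on glycine (-0.98), the organic anion transporter Slco1a4 (-1.26), the translation initiation subunit Eif3e (-0.68), Pwwp2a (-0.74), Kif12 (-0.63), Prm3 (-0.98), Olfr1009 (-0.88) and Zscan4a (-0.64). The sign of Pwwp2a, Kif12, Prm3, Olfr1009 and Zscan4a turned with normexp, which lifted the median of all genes to 0.33. The groups did not overlap for any of these 15 genes, but the genes were picked by smallest p in the same comparison, so this is no separate evidence. Over all genes, the groups did not overlap for 1.79% on the high side and 4.42% on the low side. Genes named from here on that belong neither to this rule nor to the genes the article names were chosen after their values were seen.

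Triglyceride and droplet genes included higher and lower members at the unadjusted level. Of 24 genes of triglyceride assembly and lipolysis, 5 were higher (20.8%, against 10.7% of all genes) and 5 lower (20.8%, against 15.3%), and the median difference was 0.15. Mogat1, a monoacylglycerol acyltransferase that is low in normal liver and appears in steatosis, was at -4.40, -4.55, -4.08, -4.39 and -4.00 in LFD MTX50. In HFD MTX50 it was at -0.94, -2.32, -2.71, -0.69 and -2.81. The groups did not overlap and the means were 5.24-fold apart (2.39 ± 0.40, adjusted p = 0.0556 by limma, 0.0146 without HFD MTX50 mouse 1). Its relative Mogat2 differed by 0.93 ± 0.21 (adjusted p = 0.0569). Lpin1, the phosphatidate phosphatase that makes diacylglycerol and also serves as a coactivator, went the other way, with 1.69, 1.61, 1.73, 0.95 and 2.42 in LFD MTX50 and -1.09, 1.21, -1.52, -1.43 and -0.38 in HFD MTX50 (-2.32 ± 0.48, adjusted p = 0.0556). HFD MTX50 mouse 2 lay inside the LFD MTX50 range. Pnpla3, a triglyceride lipase and retinyl esterase of the droplet, differed by -1.04 ± 0.27, without overlap (adjusted p = 0.0648), and its sign turned under normexp.

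Of 16 droplet coat and CIDE genes, 3 were higher (18.8%) and 1 lower (6.25%) at the unadjusted level. Fitm1, which partitions triglyceride into droplets, ranged from -3.63 to -2.25 in LFD MTX50 and from -1.79 to 0.17 in HFD MTX50, without overlap (1.65 ± 0.38, adjusted p = 0.0569). Cidea, which fuses droplets, was at -3.40, -3.56, -3.48, -3.75 and -2.96 in LFD MTX50 and -2.90, -2.66, -2.22, -0.09 and -2.86 in HFD MTX50. Mouse 4 was the highest, and the difference was 1.28 ± 0.47 with it (adjusted p = 0.117) and 0.77 without it. Plin2, the main coat protein of liver droplets, overlapped between the groups (2.62 to 4.51 and 4.04 to 5.03, adjusted p = 0.152), and the lipolysis cofactor Abhd5 differed by 0.52 ± 0.13 without overlap (adjusted p = 0.0617; its other probes 0.02 and -0.32). Among 21 genes of fatty acid uptake and binding, 4 were higher and 4 lower. The scavenger receptor Cd36 was at -1.45 to -0.78 in LFD MTX50 and -0.82 to 0.40 in HFD MTX50 (1.01 ± 0.24, adjusted p = 0.0579), and the fatty acid transport protein Slc27a1 differed by 0.97 ± 0.24 (adjusted p = 0.0605, and 0.00936 without mouse 1).

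Genes of new fatty acid synthesis varied more among mice of one group than between the diets. Of 25 tested, 1 was higher and 2 lower at the unadjusted level, and the median difference was -0.46. Scd1, the main hepatic desaturase, was at 2.66, 5.30, 2.43, 5.76 and 1.29 in LFD MTX50 and -1.56, -1.41, 1.71, 2.85 and 4.68 in HFD MTX50. The groups overlapped over most of their range, and the SDs were 1.94 and 2.71 (difference -2.23, exact permutation p = 0.159). Fatty acid synthase, Fasn, overlapped as well, with -2.45 to 1.70 in LFD MTX50 and -3.23 to -0.30 in HFD MTX50 (exact permutation p = 0.111). In both genes the same LFD MTX50 mice, 2 and 4, were highest. The differences of the carboxylase Acacb (-0.86), the elongase Elovl6 (-1.28), Scd2 (-0.82) and the lipogenic regulator Srebf1 (-0.58) came with standard errors of 0.59, 0.62, 0.67 and 0.68, in that order. Scd3, Elovl5, Fads2, Gpam, Enho and the carbohydrate-sensing factor Mlxipl differed by between -0.26 and 0.18. Without methotrexate, where the SDs were smaller, the same list had a median diet difference of -0.77.

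The exception in that list was Elovl3, an elongase of long saturated chains whose expression is male-biased and follows the clock. It stood at -3.51, -1.69, -2.60, -2.46 and -4.03 in LFD MTX50 and at -1.88, 0.23, 1.33, 1.23 and 1.53 in HFD MTX50. HFD MTX50 mouse 1 lay within the LFD MTX50 range and the other 4 lay above it (3.34 ± 0.65, 10.2-fold, adjusted p = 0.0556, and 0.00263 without mouse 1). Untreated livers were higher than both, at 2.46 to 4.37 in LFD and 2.03 to 2.55 in HFD, so that the sign of the diet difference was opposite without the drug (-1.33). Of the 17 genes the article names, 3 were higher at the unadjusted level, Elovl3, Mogat1 and Fitm1, and none was lower. The article chose its genes from these samples, so the count is no independent evidence.

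Glycolysis genes lay lower under the high-fat diet. Of 21 tested, 8 were lower (38.1%, against 15.3% of all genes) and 0 higher at the unadjusted level, and the median difference was -0.29. Gckr, the regulator of glucokinase, was at 4.05, 4.30, 3.90, 4.38 and 4.03 in LFD MTX50 and 3.73, 3.40, 3.40, 3.75 and 3.68 in HFD MTX50. The groups did not overlap (-0.54 ± 0.13, adjusted p = 0.0592), nor did they for Pklr, the pyruvate kinase of liver (-1.06 ± 0.28). The hepatic glucose transporter Slc2a2 was at 3.82 to 4.57 in LFD MTX50 and 3.25 to 4.18 in HFD MTX50 (-0.76 ± 0.22, adjusted p = 0.0777). No gene of this list passed the adjusted test, and 2 did without HFD MTX50 mouse 1. Of 32 genes of gluconeogenesis, glycogen and insulin signalling, 11 were lower (34.4%, against 15.3% of all genes) and 2 higher (6.25%, against 10.7%).

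**Figure D3:**
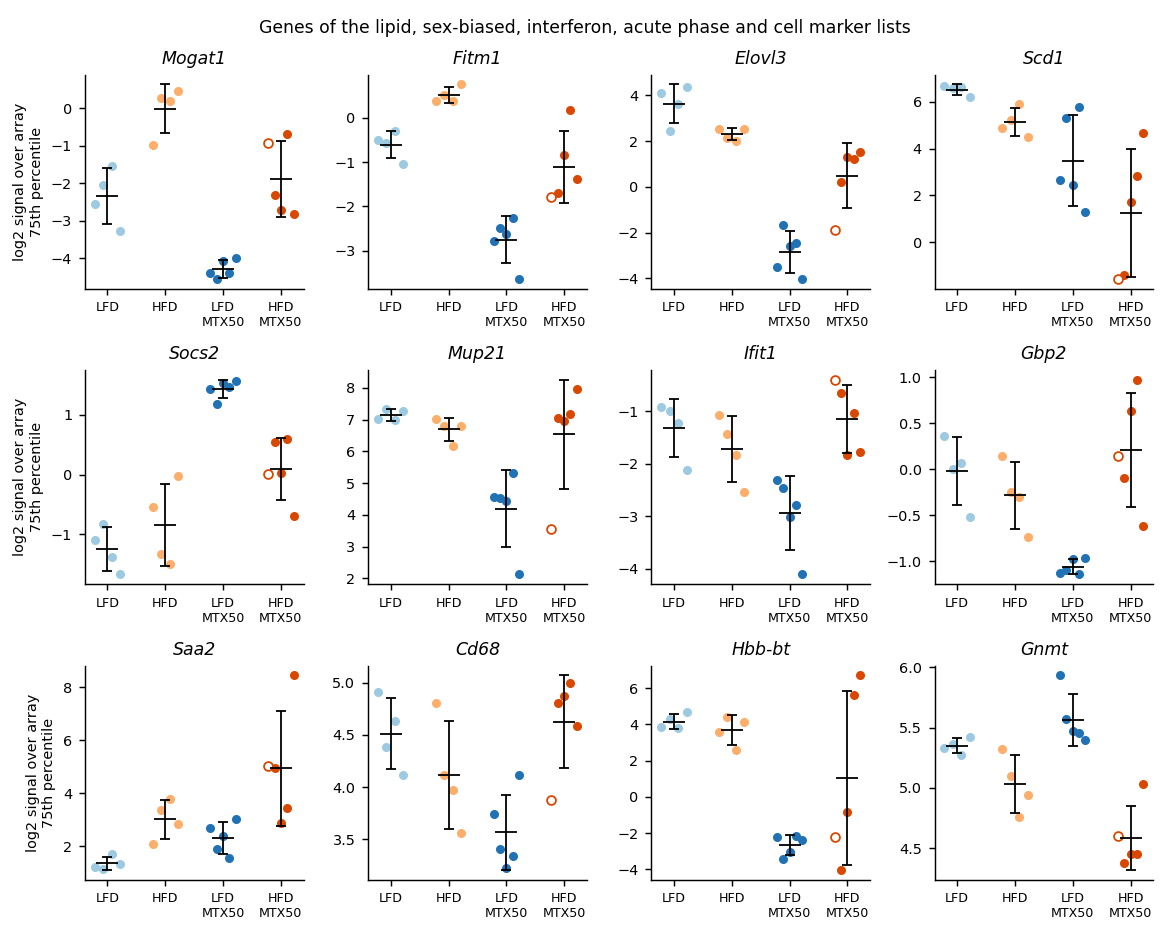
Level of 12 genes (log2 intensity relative to the array's 75th percentile) of each liver in the 4 diet and drug groups, 1 point per mouse, with a black bar for the mean ± SD. The open circle is HFD MTX50 mouse 1. The 5 LFD MTX50 livers are the highest of all groups for Socs2 and have the lowest mean for Mogat1, Fitm1, Elovl3, Mup21, Ifit1, Gbp2 and Cd68.

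Genes that differ between the sexes in mouse liver, which are set by the rhythm of growth hormone acting through STAT5, were unevenly placed. Of 32 male-biased genes, 9 were higher (28.1%, against 10.7% of all genes) and 2 lower at the unadjusted level, with a median difference of 0.52. The higher count was 4 under normexp and 6 to 14 under the other alternatives. Mup21, a major urinary protein, was at 4.56, 4.55, 4.43, 5.32 and 2.13 in LFD MTX50 and at 3.56, 7.04, 6.96, 7.19 and 7.96 in HFD MTX50. HFD MTX50 mouse 1 lay within the LFD MTX50 range, and the adjusted p was 0.102 with it and 0.014 without it. The male-specific fatty acid hydroxylases Cyp4a12a and Cyp4a12b differed by 1.20 ± 0.45 and 1.02 ± 0.35, and Gstp1, a male-biased glutathione transferase, by 1.03 ± 0.32 (adjusted p = 0.124, 0.101 and 0.0853). These genes were higher again in the untreated livers, where Cyp4a12a stood at 3.06 to 3.56 in LFD and 1.55 to 2.58 in HFD, against -1.77 to -0.39 in LFD MTX50 and -1.03 to 1.31 in HFD MTX50. Urinary protein and Cyp4a12 genes have close paralogs that a probe may not separate.

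Of 35 female-biased genes, 7 were higher (20%, against 10.7% of all genes) and 8 lower (22.9%, against 15.3%) at the unadjusted level. The list thus had no common direction, and Cux2 was the only member past the adjusted test. Atp6v0d2, a proton pump subunit, was at -2.50, -2.80, -3.44, -3.21 and -3.17 in LFD MTX50 and -3.56, -5.64, -4.28, -4.86 and -5.19 in HFD MTX50. Its groups did not overlap (-1.68 ± 0.35, adjusted p = 0.0556; another probe -1.35), though its sign turned under normexp. The flavin monooxygenase Fmo2 differed by -2.31 ± 0.66 (adjusted p = 0.0734), while the sulphotransferase Sult2a2 lay higher in HFD MTX50 (2.45 ± 0.50, adjusted p = 0.0556). Socs2, the feedback inhibitor of growth hormone signalling, was at 1.43, 1.18, 1.53, 1.47 and 1.56 in LFD MTX50 and at 0.01, 0.55, 0.02, 0.59 and -0.69 in HFD MTX50. The groups did not overlap, and the 3 probes of the gene differed by -1.34, -1.51 and -1.45 (adjusted p = 0.0556 for the first). Untreated livers lay at -1.67 to -0.83 in LFD and had a mean of -0.84 in HFD.

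Interferon-stimulated genes had the highest share of higher members among the 26 lists. Interferons signal through transcription factors that bind a repeated GAAA element near the start of these genes, and the products act as antiviral effectors, guanylate-binding proteins and GTPases of the immune response. Of 46 genes tested, 24 were higher (52.2%, against 10.7% of all genes) and 1 lower at the unadjusted level, 44 had a positive difference, and the median was 0.59 against -0.06 over all genes. Of the 46, 9 were higher without overlap between the groups, against 1.79% of all genes. Xaf1 was the only one past the adjusted test, and 8 passed without HFD MTX50 mouse 1. Under normexp 10 were higher at the unadjusted level, and under the other alternatives 20 to 30. The lists were chosen with earlier results of these data known, so the rank and shares of this list are no separate evidence.

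The promoters of these genes were read from RefSeq sequence (GRCm38.p6), which has an entry for 35 of the 46. The element GAAANNGAAA, searched on both strands in the 250 bases before the start site, is present in 3.04% of 27025 mouse promoters and in 16 of these 35 (45.7%). It was chosen after the list's values were known. The lines below give, for 5 of the genes described next, the stretch holding the element with its flanking bases, 5′ to 3′ on the strand of the gene. Capitals mark each match, where a match beginning with TTTC is the same element on the opposite strand.
Ifit1 (chr19:34640765-34640833, plus strand): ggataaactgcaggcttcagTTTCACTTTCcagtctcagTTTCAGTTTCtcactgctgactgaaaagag
Rsad2 (chr12:26456543-26456592, minus strand): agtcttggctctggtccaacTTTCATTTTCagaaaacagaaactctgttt
Isg15 (chr4:156200855-156200916, minus strand): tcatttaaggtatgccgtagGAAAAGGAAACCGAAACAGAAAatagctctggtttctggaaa
Gbp2 (chr3:142620584-142620633, plus strand): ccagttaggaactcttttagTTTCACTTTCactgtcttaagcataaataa
Irgm1 (chr11:48871421-48871470, minus strand): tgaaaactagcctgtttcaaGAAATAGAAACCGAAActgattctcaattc

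Ifit1 and Irgm1 hold 2 matches each, and Isg15 holds 3 that overlap. The 16 genes with the element had a median difference of 0.68, with 10 higher at the unadjusted level, and the 19 without it a median of 0.47, with 8 higher. The STAT palindrome TTCNNNGAA was in 7.18% of all promoters and in 25.7% of these 35. A match is a description of the letters in this window, and no match there says nothing about the factors.

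Ifit1, which binds viral RNA, was at -2.32, -2.46, -3.02, -2.78 and -4.11 in LFD MTX50 and -0.40, -0.66, -1.83, -1.04 and -1.78 in HFD MTX50, without overlap (1.79 ± 0.38, 3.47-fold, adjusted p = 0.0556). Rsad2, the antiviral enzyme viperin, ranged from -4.14 to -2.49 and from -2.49 to -0.63, so that the groups met at HFD MTX50 mouse 3 (1.69 ± 0.38, adjusted p = 0.0569). The ubiquitin-like modifier Isg15 differed by 0.50 ± 0.12, without overlap and with a second probe at 0.95. Among the guanylate-binding proteins, Gbp2 was at -1.13, -1.10, -0.98, -1.13 and -0.97 in LFD MTX50 and at 0.14, -0.10, 0.64, 0.97 and -0.61 in HFD MTX50 (1.27 ± 0.25, adjusted p = 0.0556). Gbp6 ranged from -2.76 to -2.20 and from -1.81 to 0.12 (1.81 ± 0.32, adjusted p = 0.0556; another probe 0.60). Neither overlapped between the groups, whereas Gbp3, Gbp4 and Gbp7 did, with differences of 0.85, 1.01 and 0.12 (adjusted p = 0.0991, 0.118 and 0.729). Under normexp the difference was 0.79 for Gbp2 and 1.09 for Gbp6. Irgm1, an immunity-related GTPase that guides autophagy, was at 0.55 to 1.04 and 1.31 to 1.89 (0.77 ± 0.13, adjusted p = 0.0556; another probe 0.32). In all of these genes the mean of the untreated LFD livers also lay above that of LFD MTX50, as at -1.32 against -2.94 for Ifit1 and -0.61 against -2.53 for Gbp6. Of the 10 MHC class II presentation genes, which interferon also induces, 1 was higher and 0 lower.

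Serum amyloid genes, of which Saa1 and Saa2 are hepatic acute phase products of interleukin signalling, were high in some HFD MTX50 livers. Saa1 was at 2.92, 2.47, 2.96, 2.34 and 2.86 in LFD MTX50 and 4.74, 4.85, 3.28, 3.56 and 8.49 in HFD MTX50. All HFD MTX50 livers lay above the LFD MTX50 range, mouse 5 by far the most (2.27 ± 0.80, adjusted p = 0.108). Saa4 also had its highest value in mouse 5 and did not overlap (1.23 ± 0.34, adjusted p = 0.0684), and Saa3 did not overlap either (1.70 ± 0.38, adjusted p = 0.0567), with mouse 1 the highest at 0.73. Probes of Saa1 and Saa2 may share transcripts. The acute phase list as a whole had 4 genes higher and 2 lower of 37, on the high side close to the background. Of 40 complement and coagulation genes, 14 were lower (35%, against 15.3% of all genes) and 2 higher (5%, against 10.7%). The lower count was 5 under normexp and 10 to 18 under the other alternatives. Kng1, the kininogen precursor, was at 7.42 to 7.67 in LFD MTX50 and 6.80 to 7.22 in HFD MTX50 (-0.53 ± 0.11, adjusted p = 0.0556).

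Genes of the cell cycle and DNA replication were placed higher in HFD MTX50, with 15 of 41 higher (36.6%, against 10.7% of all genes) and 2 lower at the unadjusted level. The median difference was 0.30, and without methotrexate the median diet difference of the list was 0.32. The difference of differences passed for 2 of 42 above 0 and for 2 below. Aurka, a mitotic kinase, was at -3.72, -3.81, -3.85, -4.02 and -3.07 in LFD MTX50 and -2.40, -2.89, -2.73, -2.23 and -1.62 in HFD MTX50, without overlap (1.32 ± 0.25, adjusted p = 0.0556). Ccnb1, the mitotic cyclin, was at -2.13 to -1.88 in LFD MTX50 and at -0.83 to -0.28 in HFD MTX50 mice 2 to 5, while mouse 1 stood at -1.94 (adjusted p = 0.0562, and 0.000474 without it; its other probes -0.33 and 0.16). The proliferation marker Mki67 was highest in HFD MTX50 mice 4 and 5, at -1.90 and -0.65, and between -3.83 and -2.94 in the other 8. The globins were highest in the same mice. The cell cycle count was 1 under normexp and 6 to 19 under the other alternatives. Of 32 p53 target genes, 4 were higher and 2 lower.

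Folate and one-carbon genes, the pathway the drug acts on, showed no common direction: of 43, 7 were higher (16.3%, against 10.7% of all genes) and 10 lower (23.3%, against 15.3%) at the unadjusted level, and the median difference was -0.08. The reduced folate carrier Slc19a1, by which the drug enters, was at -0.42 to -0.22 in LFD MTX50 and -0.64 to 0.01 in HFD MTX50 (0.07 ± 0.14). A p that misses the threshold does not show that the levels were equal. Among the lower members beside Ahcy, Gnmt was at 5.93, 5.57, 5.47, 5.46 and 5.39 in LFD MTX50 and 4.60, 4.38, 4.45, 4.45 and 5.03 in HFD MTX50, without overlap (adjusted p = 0.0556). Slc25a32, the carrier of folate into mitochondria, was at -1.72 to -1.22 and -2.45 to -1.98 (-0.75 ± 0.13, adjusted p = 0.0556), with its sign turned under normexp, and Shmt1, which moves the serine carbon onto folate, differed by -0.57 ± 0.15 (adjusted p = 0.0669). Among the higher members, the folate receptor Folr1 was at 0.47, 0.18, 0.37, 0.24 and 0.40 in LFD MTX50 and 0.57, 0.75, 1.13, 1.18 and 3.54 in HFD MTX50, without overlap (1.10 ± 0.47, adjusted p = 0.158; another probe 0.09). The mitochondrial folate dehydrogenases Mthfd2 and Aldh1l2 differed by 1.09 ± 0.40 and 0.72 ± 0.20, and methionine synthase, Mtr, by 0.75 ± 0.27 with another probe at -0.16 (adjusted p = 0.116, 0.0717 and 0.112).

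Fatty acid oxidation genes and other targets of the receptor PPAR-alpha, which fatty acids activate, had 12 of 49 higher (24.5%, against 10.7% of all genes) and 2 lower (4.08%, against 15.3%). Of the 49, 42 had a positive difference, and the median was 0.32 against -0.06 over all genes. The higher count was 2 under normexp and 9 to 22 under the other alternatives. Vnn1, a pantetheinase and sensitive PPAR-alpha target, was at -2.35, -1.91, -1.11, -1.93 and -2.79 in LFD MTX50 and 0.14, 1.04, 0.69, 1.63 and -1.13 in HFD MTX50 (2.49 ± 0.47, adjusted p = 0.0556). Mouse 5 of the HFD MTX50 group lay within the LFD MTX50 range and the other 4 above it. Cpt2, which completes carnitine-dependent entry of fatty acids into mitochondria, differed by 0.62 ± 0.17, Creb3l3 by 0.62 ± 0.18 and the thioesterase Acot2 by 1.49 ± 0.51 (adjusted p = 0.0691, 0.0767 and 0.0998). Of 48 nuclear-encoded respiratory chain subunits, 5 were higher and 0 lower, near the background on the high side.

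Several hepatocyte functions were placed lower. Of 29 bile acid genes, 8 were lower (27.6%, against 15.3% of all genes) and 0 higher. Among them was Cyp2c70, which makes the muricholic acids of the mouse, at 5.14, 5.09, 5.05, 5.34 and 5.57 in LFD MTX50 and 4.59, 3.86, 3.85, 3.65 and 4.79 in HFD MTX50. Its groups did not overlap (-1.09 ± 0.22, adjusted p = 0.0556), nor did those of Cyp27a1, the sterol 27-hydroxylase (-0.60 ± 0.15, adjusted p = 0.0626). Of 40 genes of the urea cycle and amino acid catabolism, 13 were lower (32.5%, against 15.3% of all genes) and 0 higher. They included argininosuccinate lyase, Asl (-1.06 ± 0.28), and carbamoyl phosphate synthetase, Cps1 (-0.77 ± 0.23). The lower count of this list was 6 under normexp and 10 to 17 under the other alternatives. The summed hepatocyte markers were also lower in 4 of 5 HFD MTX50 livers than in any LFD MTX50 liver, and their part in these lists was not tested. Cps1 is itself a hepatocyte marker here, and 40% of those markers were lower at the unadjusted level. Cholesterol synthesis and uptake had 0 of 38 higher and 4 lower, apolipoprotein genes 3 of 20 higher and 3 lower, with the mRNA editing enzyme Apobec1 at 0.52 to 1.07 and 1.30 to 2.99 (1.19 ± 0.29, adjusted p = 0.059).

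The remaining lists stayed near or under the background of 10.7% higher and 15.3% lower. Collagen and fibrosis genes, of interest because methotrexate is linked to liver fibrosis, had 1 of 29 higher and 5 lower. Timp1, the inhibitor of matrix metalloproteinases, did not overlap (-3.13 to -2.58 and -2.45 to -1.95, 0.64 ± 0.15, adjusted p = 0.0588), and the collagen cross-linking enzyme Loxl2 lay at 0.14 to 0.55 in LFD MTX50 and -0.74 to 0.03 in HFD MTX50 (adjusted p = 0.0599). Of 34 Cyp2 and Cyp3a drug metabolism genes, 2 were higher and 4 lower, and of 40 conjugation and NRF2 genes, 5 were higher and 6 lower. Circadian genes had 1 of 26 higher and 3 lower, and unfolded protein and ER stress genes 1 of 32 higher and 5 lower. Without HFD MTX50 mouse 1, the unfolded protein and ER stress list had 0 higher and 9 lower, so its count depends on that mouse.

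**Figure D4:**
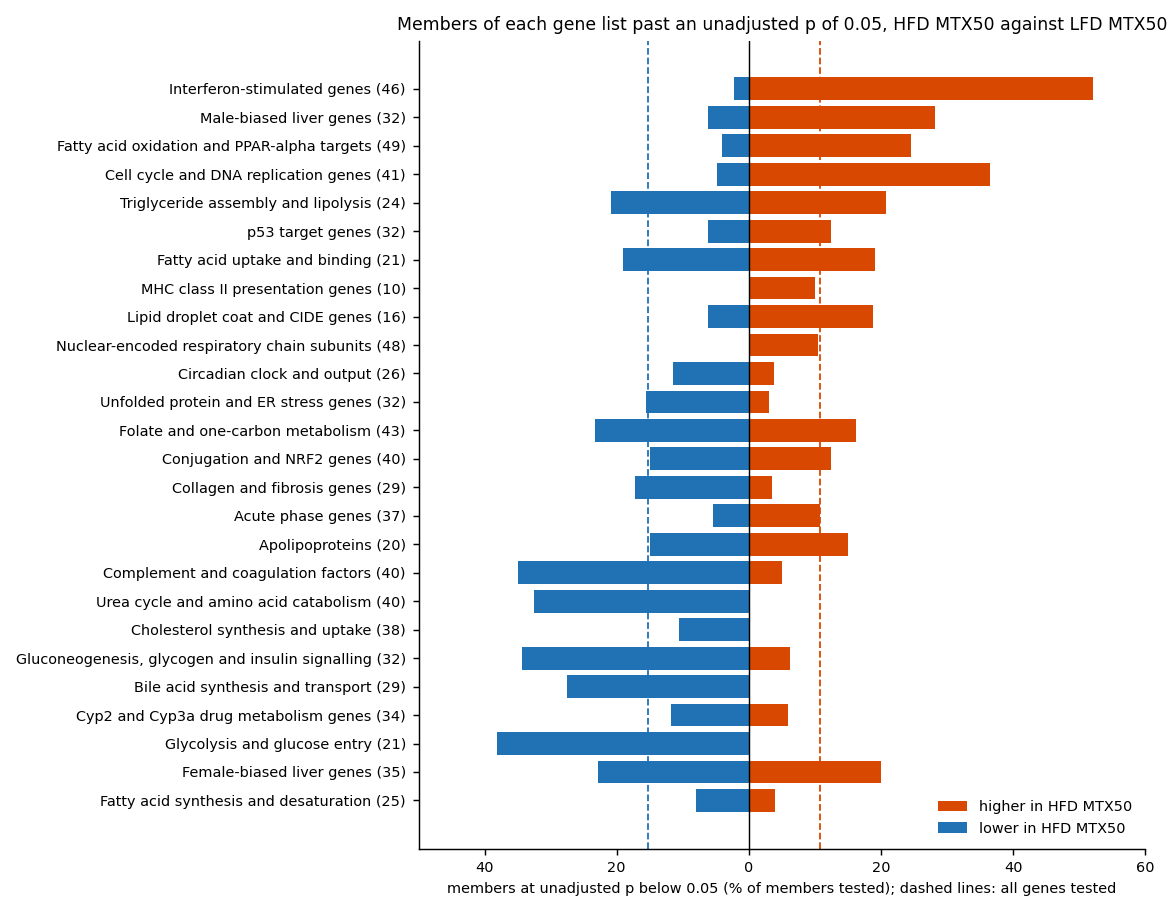
Percentage of the tested members of each gene list that were higher (to the right) or lower (to the left) in HFD MTX50 than in LFD MTX50 at an unadjusted p below 0.05 in limma; the dashed lines mark the same percentages over all 19266 genes, 10.7 and 15.3%. Interferon-stimulated genes reach 52.2% on the high side, and glycolysis genes 38.1% on the low side with none high.

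The diet difference under the drug was then set against the diet difference without it, which rests on 8 other arrays, in a model of all 18. The differences differed at an adjusted p below 0.05 in limma for 8.66% of 19594 genes above 0, where HFD minus LFD was more positive under methotrexate, and for 18.1% below 0. The median over all genes was -0.11, and the count fell from 5241 to 0 genes with normexp and to 1248 with the slide as a block. The model pools the less variable untreated livers with the treated ones. In it, the diet comparison under the drug alone called 3201 genes, against 9 in the test of the treated arrays alone. Interferon-stimulated genes were above 0 in 41.3% (19 of 46) and below in 1. Of male-biased genes 8 of 32 (25%) were above 0, and of female-biased genes 9 of 36 (25%) were below and 0 above. Respiratory chain subunits had 13 of 49 above 0 (26.5%, against 8.66% of all genes) and 0 below. Collagen and fibrosis genes had 0 of 30 above and 6 below (20%, near the 18.1% of all genes), with a median of -0.67.

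Single genes fell into distinct arrangements. Lpin1 had a diet difference of -2.32 under the drug and 0.15 without it (difference of differences -2.48 ± 0.62, adjusted p = 0.0115). For Cux2 the values were -3.96 and 0.77, but only 1 of 4 untreated LFD and 2 of 4 untreated HFD arrays were well above background, so that its untreated difference rests on levels near background. For Ahcy the untreated difference was -0.13, and for Socs2 it was 0.40. For Xaf1, Ifit1 and Gbp2 it was 0.35, -0.40 and -0.26, against 2.70, 1.79 and 1.27 under the drug, and the differences of differences were 2.34, 2.19 and 1.53 (adjusted p = 0.0105, 0.0129 and 0.0096). Elovl3 changed sign, from -1.33 to 3.34 (4.67 ± 0.86, adjusted p = 0.00519). By contrast Gpat3, Mogat1, Fitm1, Gpc1 and Cd36 had positive diet differences in both settings, and for these 5 genes the difference of differences did not pass (adjusted p = 0.41 to 0.953). Cidea was 4.17 higher in HFD than in LFD without the drug and 1.28 higher with it (-2.88 ± 0.94, adjusted p = 0.0329).

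**Figure D5:**
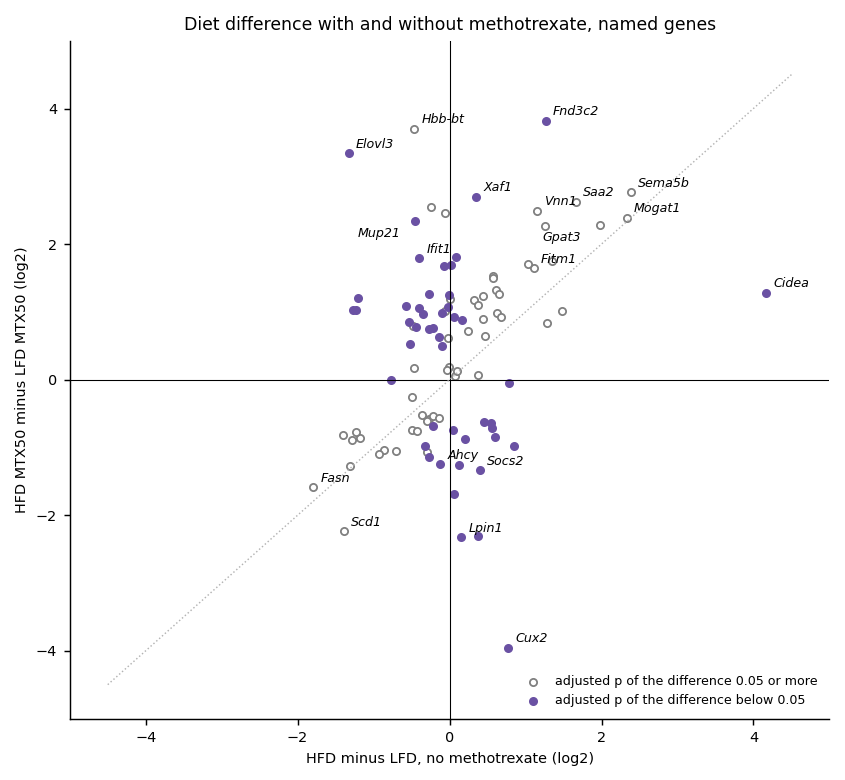
Diet difference (HFD minus LFD, log2) without methotrexate on the horizontal axis against the diet difference under methotrexate on the vertical axis, 1 point per named gene, filled where the difference of the 2 differences passed an adjusted p of 0.05. The axes share no arrays. Gpat3 and Mogat1 lie near the line of equal differences, Cux2 and Lpin1 lie low with untreated differences of 0.77 and 0.15, and Elovl3 lies high with a negative untreated difference.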

How the data were processed

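Liver RNA was hybridized to 1-colour Agilent 4×44K arrays; the sample records and the article name different amplification kits. The deposited intensity values were made by the authors with Feature Extraction 10.7.3.1, which subtracted the background within each array; values were not scaled between arrays. Since the deposited values are linear, log2 was taken here and the array's own 75th percentile subtracted. Spots marked as outliers (124 to 241 per treated array) were left out, and repeated spots of a probe averaged. Probes were kept, 35016 in all, where 4 or more of the 10 treated arrays measured them well above background. Probes were named through a RefSeq table (GRCm38.p6), and a gene was read on its brightest probe.

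limma 3.58.1 (R 4.3.3) compared 5 HFD MTX50 with 5 LFD MTX50 arrays, adjusting by Benjamini-Hochberg across these probes. The difference of diet effects came from 1 model of 4 groups on 18 arrays (35739 probes). Exact permutation tests of 2 means were 2-sided. The code was tested on simulated data. Nothing in the labels says more than that replicates are separate mice, and their number limits the precision.

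The members and the gene lists were chosen with earlier results of these data known. By rule, the text names the 12 largest differences in each direction past the adjusted p and 2-fold without overlap, filled up by smallest p, plus the genes the article names; a few of these are not reported here. Lists are described by counts and medians beside those of all genes. Alternatives were the scaling (median, quantile), normexp on the median spot signal, since no mean signal column was used, the deposited series table, outlier spots, filters on dim probes, variance trend, all 18 arrays, the methods' t-test, slide and replicate number as blocks, the probe read for a gene, and leaving out each array. Same-numbered treated mice deviated together with correlations of -0.28 to 0.21, and only 1 of 5 HFD MTX50 mice correlated best with its own number, so the numbers were not taken as pairs.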

Additional observations from a re-analysis of the deposited data

Results flagged for a closer look

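The diet difference under methotrexate and the diet difference without it differed, at an adjusted p below 0.05 in the limma model of all 18 arrays, for 47 of the 102 genes named in the text. The values below are the first difference minus the second, on the log2 scale. Since most of these genes were named for their size under the drug, their number is not read against the share of all genes. The model pools the less variable untreated livers with the treated ones, and in it the diet comparison under the drug alone called 3201 genes, against 9. The slides differ between the groups, and their part was not tested gene by gene.

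Among genes past the adjusted test in the drug-treated comparison, the values were 2.55 for Fnd3c2, 2.34 for Xaf1, 0.866 for Enpp5, -4.72 for Cux2, -1.13 for Ahcy, -0.868 for Arrdc4 and -1.44 for Eef2k. The value of Cux2 rests on untreated levels near background, with 1 of 4 LFD and 2 of 4 HFD arrays well above it. Among those of smallest p, they were 1.10 for Abcg2, 0.728 for Abhd6, 1.08 for Herc6, -0.664 for Gnmt, -1.08 for Kif12, -1.38 for Slco1a4, -1.83 for Prm3, -1.08 for Olfr1009, -0.463 for Eif3e and -1.19 for Zscan4a.

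Lipid and metabolic genes gave -0.828 for Scd3, 4.67 for Elovl3, 0.767 for Mlxipl, -2.48 for Lpin1, 1.32 for Slc27a1, -2.88 for Cidea, 1.04 for Abhd5, 0.769 for Cpt2, -0.789 for Slc25a32, 1.66 for Mthfd2 and 1.02 for Mtr. Genes tied to growth hormone or sex gave -1.74 for Socs2, -1.74 for Atp6v0d2, -2.68 for Fmo2, 2.80 for Mup21, 2.40 for Cyp4a12a, 2.26 for Cyp4a12b and 2.29 for Gstp1. The interferon-stimulated genes gave 1.21 for Irgm1, 1.74 for Gbp6, 1.53 for Gbp2, 1.38 for Gbp3, 2.19 for Ifit1, 1.67 for Rsad2 and 0.595 for Isg15. Macrophage, erythroid and matrix genes gave 1.46 for Cd68, 0.968 for Csf1r, 1.75 for Alas2, 1.25 for Car2 and -1.26 for Loxl2.

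Within groups of 5, 9 single livers lay far from the rest, out of 204 groups examined; chance alone gives about 1 in 20. The gap to the nearest mouse, as a share of the group's range, was 0.801 for Pwwp2a in LFD MTX50 mouse 4, 0.892 for Olfr1009 in LFD MTX50 mouse 1, 0.937 for Slc2a2 in LFD MTX50 mouse 3 and 0.722 for Mup21 in LFD MTX50 mouse 5. It was 0.773 for Mup21 in HFD MTX50 mouse 1, 0.726 for Fmo2 in HFD MTX50 mouse 2, 0.758 for Cidea in HFD MTX50 mouse 4, 0.835 for Saa4 in HFD MTX50 mouse 5 and 0.795 for Folr1 in the same mouse.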

How the results depend on the processing

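The number of genes past the adjusted test (9, of which 7 at least 2-fold) sat on the edge of the threshold and moved widely. It was 0 with normexp (938 genes at an unadjusted p below 0.05), without a filter on dim probes (5075), with the slide as a random block on the 10 arrays (2990) and with the mean of a gene's probes (4843). It was 156 with quantile normalization (61 at 2-fold), 29 with the series table (15), 618 where probes had to clear background on every treated array (2.1e+02, 185 higher and 22 lower), 590 with a variance trend and robust variances (192) and 3201 with all 18 arrays in 1 model (489). The methods' t-test gave 119 after Benjamini-Hochberg adjustment (9 at 2-fold) and 2346 at p up to 0.015 (329). With the slide as a random block on 18 arrays it was 18 (11). Passing by any probe gave 15 (11). Leaving out 1 array gave 0 to 1970 genes, and 0 to 589 at 2-fold, the most without HFD MTX50 mouse 1. All 9 genes remained among those passing with quantile normalization, the series table, the trend and all 18 arrays; the causes were not tested.

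Of the passing genes 55.6% were higher; this share was 26.1% with the adjusted methods' t-test, 45.5% with all 18 arrays and 66.7% with median scaling. With the replicate number as a block, 0 genes passed, and 0 at 2-fold (4477 at an unadjusted p below 0.05); the numbers are not taken as pairs.

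The count of genes whose diet differences differed (5241) was 3282 with quantile normalization, 0 with normexp and 1248 with the slide as a block, and 3006 to 6197 on leaving out 1 array.

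With normexp, whose median over all genes was 0.33, the difference turned positive for Eef2k (0.28), Pwwp2a (0.52), Kif12 (0.32), Prm3 (0.55), Olfr1009 (0.57), Zscan4a (0.78), Scd3 (0.21), Gpam (0.58), Srebf1 (0.0605), Pnpla3 (0.59), Atp6v0d2 (0.26) and Slc25a32 (0.0653). Mlxipl was at 0.0390 with median scaling and 0.0451 with the series table, and Slc19a1 at -0.19 with the mean of its probes. On leaving out 1 array, differences near 0 changed sign, with ranges of -0.102 to 0.0585 for Scd3, -0.0959 to 0.454 for Elovl5, -0.0964 to 0.234 for Fads2, -0.0893 to 0.126 for Mlxipl, -0.0016 to 0.16 for Slc19a1, -0.0145 to 0.27 for Gbp7 and -0.0336 to 0.297 for Clec4f. Normexp also brought the difference to 1.26 for Mogat1, 1.63 for Vnn1, 1.40 for Sult2a2, -1.16 for Fmo2, -0.71 for Slco1a4, -0.38 for Eif3e, -0.42 for Loxl2 and 0.31 for Abhd5. For dim genes such as Cux2 and Zscan4a, the signal over background limits the precision.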
